A study of Mus musculus with 8 samples.

Results

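The collagens and extracellular matrix genes of the right ventricle were compared between POLG mutant and WT mice. The set was defined by gene name, with earlier results of these data known. It held every gene of the deposited table named as a collagen chain (44 genes). With these were 24 genes of matrix proteins, cross-linking enzymes, matrix proteases, their inhibitors and fibroblast identity. These 68 genes were part of 55421 genes in the table. Of the 68, 38 reached a mean of at least 1 FPKM over the 8 libraries (FPKM are fragments per kilobase of transcript, scaled to the mapped fragments of the library) and entered the test, among them 16 collagens. The other 30 lay below that level, of which Col10a1 and Col19a1 were listed at 0 in every library.

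The POLG group was made of 4 female mice homozygous for POLG D257A, at 9 to 10 months of age (libraries E, F, G and H). The WT group was made of 4 female mice with wild type POLG, at the same age (libraries A, B, C and D). Both genotypes came from crosses of heterozygous mice of the line B6.129S7(Cg)-Polgtm1Prol/J, and both groups were untreated as far as the labels state. D257A disables proofreading by the mitochondrial DNA polymerase, and the allele is carried by all cells of the animal, so a change in the ventricle cannot be assigned to a cell type. Each library was made from poly(A) RNA of right ventricle tissue of 1 mouse.

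The cardiac matrix is a network of type I and type III collagen fibrils around and between muscle cells, with a basement membrane of type IV collagen and laminin on the surface of each myocyte and capillary. Its fibrils are made mostly by fibroblasts, while type IV collagen is also made by endothelial and muscle cells. Lysyl oxidases cross-link collagen and elastin, matrix metalloproteinases cut the network, and tissue inhibitors of metalloproteinases (TIMPs) hold those enzymes in check.

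Ventricular identity was present in each library, with the ventricular myosin light chain Myl2 at 1389 to 1648 FPKM in POLG and 1720.4 to 2018 FPKM in WT. POLG H, WT C and WT D stood apart from the other libraries in ways that touch the matrix genes. POLG H had the lowest value of all libraries in 40.2% of the 10236 genes tested, and WT C in 15.8%. Their depth relative to the deepest library, estimated roughly from the spacing of low FPKM, was 67.0% for POLG H, 59.7% for WT C and 71.3% for WT D, against at least 90.8% for each of the other libraries. The atrial myosin light chain Myl7 did not exceed 0.498 FPKM in POLG or in WT A and B, and was at 51.7 FPKM or more in WT C and D. The atrial marker Sln was at 0 in every POLG library and in WT A and B. Not all atrial markers followed this split. The 5 atrial markers summed to 67.5, 199.99, 108 and 164 FPKM in POLG E, F, G and H. In WT A, B, C and D they summed to 38.3, 52.6, 263 and 636 FPKM. With all libraries 1 of the 5 was higher in POLG and 4 were lower. Without WT C and D, 3 were higher and 1 lower, and Bmp10 was higher at a limma adjusted p under 0.05. The part of atrial tissue in any library was not tested. FPKM carry no read totals, so the depth behind a single value is not known.

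No matrix gene passed the test in either direction. With limma on log2(FPKM + 1) over 10236 genes and an adjusted p under 0.05, 0 of 38 matrix genes were higher in POLG (0.694% of all genes tested) and 0 were lower (2.12% of all genes tested, and 2.81% in either direction). The smallest adjusted p among the 38 was 0.0993 from limma, for the inhibitor Timp1. At an unadjusted p under 0.05, 7 of the 38 stood out (18.4%, against 22.2% of all genes tested), of which 3 were higher (Timp1, Eln and Fbln5) and 4 lower (Timp2, Fbln1, Lum and Dcn). An exact permutation test per gene, adjusted over all genes, passed none of the 10236 genes. With 4 mice against 4 its smallest p is 0.0286, so it could not decide on the matrix genes. Fold changes on this scale understate the change of genes with low FPKM. The POLG and WT libraries did not overlap in 4 of the 38 (10.5%, against 15.8% of all genes tested). These were elastin (Eln), which was higher in POLG (2.96% of all genes tested), and Timp2, Fbln1 and Lum, which were lower (12.9% of all genes tested).

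The genes leaned in no common direction. Log2 fold changes, POLG over WT, were above 0 in 20 of the 38 genes and in 31.7% of all genes tested, and their median was 0.02, against -0.09 over all genes. With median ratio scaling, which evens out the typical gene between libraries, 22 of the 38 were above 0 (median 0.10). So were 5175 of all 10236 genes tested (median 0.003). Among the 16 collagens, 10 were below 0 in the main fit. The balance moved with the libraries used. When 1 library was left out, 16 to 26 of the 38 were above 0, with 26 without POLG H (median 0.24), 16 without WT C (median -0.08), 16 without POLG F and 17 without POLG G (median -0.04 for both). Without both WT C and D, a set chosen after seeing the data, 13 were above 0 (median -0.15). POLG H had the lowest value of the 8 libraries in 24 of the 38 genes (63.2%), among them 14 of the 16 collagens, and WT C had it in 8 (21.1%). The factor of median ratio scaling was 0.875 for POLG H and 0.984 to 1.09 for the other libraries. Whether the scale of FPKM or the depth of these libraries has a part in this was not tested.

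**Figure D1:**
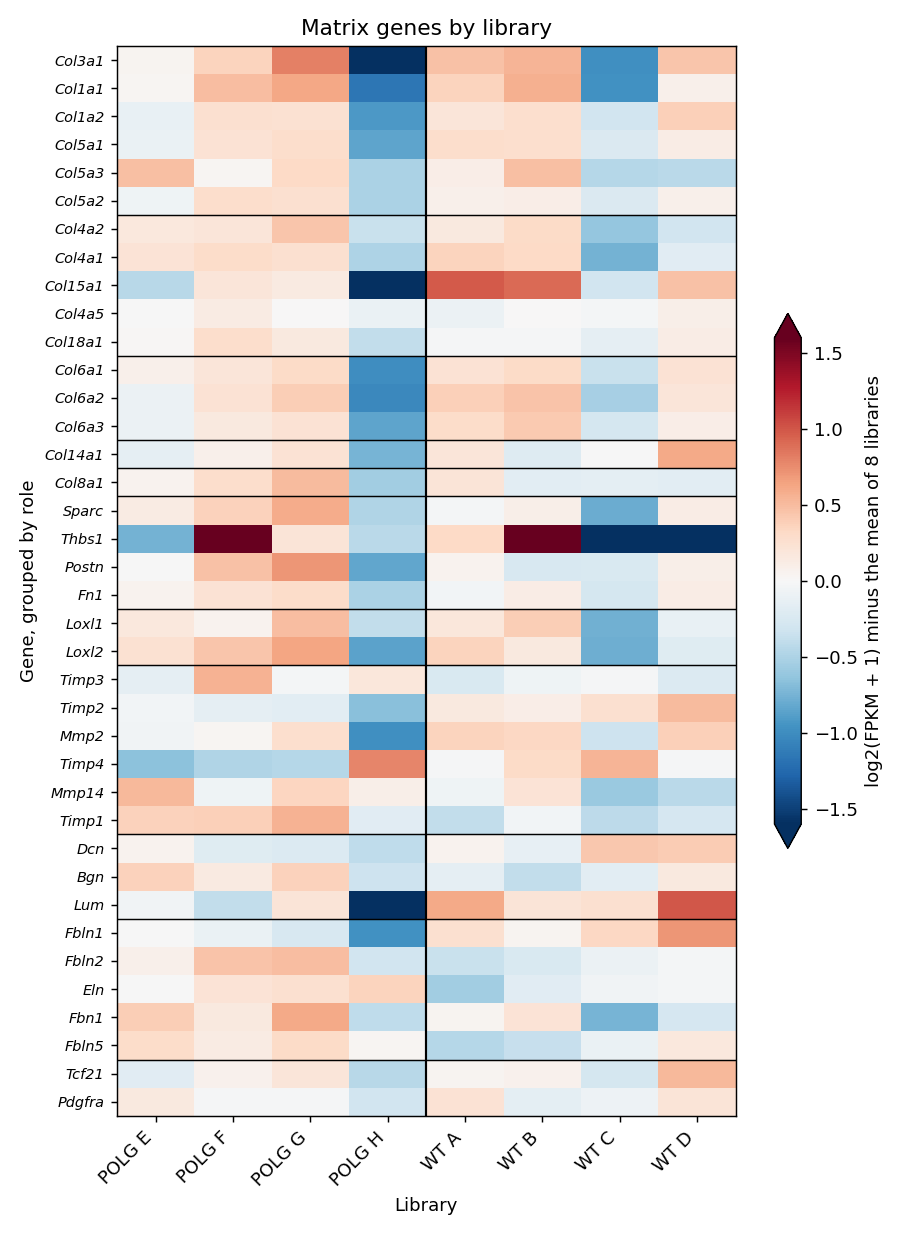
The heatmap shows log2(FPKM + 1) of the 38 matrix genes tested (vertical axis, grouped by role and divided by lines) in each library (horizontal axis, POLG E to H and then WT A to D), as the difference from the mean of the 8 libraries. The POLG H column is blue (low) in most rows, being the lowest library in 24 of the 38 genes, and WT C is low in Col3a1, Col1a1, Col4a1 and Col4a2.

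Fibrillar collagens form the tensile cords of the heart wall. Of the 11 in the table, 6 were tested, and 5 of these had log2 fold changes below 0 (3 of 6 with median ratio scaling), with a median of -0.12 and none past the test. Their summed level was 27.2, 34.7, 40.3 and 9.84 FPKM in POLG E, F, G and H, against 34.0, 37.8, 15.9 and 32.2 FPKM in WT A, B, C and D. POLG H was thus far under the other POLG libraries, and WT C was the low library of its own group. Without POLG H, 5 of the 6 were above 0 (median 0.21), and without WT C and D all 6 were below 0 (median -0.38). As these are bulk samples, fewer fibroblasts and less RNA per fibroblast cannot be told apart.

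Col3a1 encodes the chain of type III collagen, a homotrimer of compliant tissues, and had the highest mean of the fibrillar genes. It was at 7.55, 9.71, 13.5 and 1.61 FPKM in POLG E, F, G and H, and at 10.5, 11.2, 3.22 and 10.4 FPKM in WT A, B, C and D. The groups overlapped over nearly their whole range, with both the highest and the lowest value in POLG. The log2 fold change was -0.24 (SE, the standard error, 0.54, limma adjusted p = 0.838), and it was 0.28 without POLG H. An annotated miRNA gene, Gm47302, lies within exon sequence of Col3a1 on the same strand over 141 bases. It was listed at 20.4, 32.8, 33.2 and 2.87 FPKM in POLG E to H and at 24.7, 27.8, 6.09 and 27.6 FPKM in WT A to D, and how the reads were divided between them was not tested. It was chosen after its values were seen.

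The gene lies on chromosome 1 of mm10 (45311538 to 45349706, plus strand), 24.6 kb from Col5a2 on the opposite strand. The 250 bases before its RefSeq start (GRCm38.p6, chr1:45311288-45311537, plus strand) are shown because Col3a1 is the leading fibrillar gene, with a match to TATAAA in capitals.
Col3a1: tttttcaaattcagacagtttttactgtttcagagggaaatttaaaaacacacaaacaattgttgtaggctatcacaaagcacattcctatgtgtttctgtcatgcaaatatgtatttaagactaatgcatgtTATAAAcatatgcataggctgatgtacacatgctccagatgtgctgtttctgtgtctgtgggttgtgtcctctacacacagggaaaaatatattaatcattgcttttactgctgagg
Promoters of the same length were searched on both strands for the box CCAAT, for the TATA box written as TATAAA, for the box GGGCGG that Sp1 is known to bind and for the AP-1 letters TGANTCA, and a gene was counted when any of its annotated starts held a match. No match overlapped that of another motif in the sequences shown. RefSeq held promoters for 50 of the 68 genes. CCAAT was found in 34.0% of these 50 genes and 37.5% of 27025 genes in all, TATAAA in 14.0% and 14.3%, GGGCGG in 62.0% and 35.4%, and TGANTCA in 2% and 7.82%. The match in Col3a1 begins 117 bases before the start.

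Col1a1 and Col1a2 encode the chains of type I collagen, the stiffest and commonest fibril of the heart. Col1a1 was at 7.32, 10.5, 11.5 and 2.66 FPKM in POLG E, F, G and H, against 9.42, 11.1, 3.17 and 7.62 FPKM in WT A, B, C and D. The means were 8.0 ± 3.98 FPKM in POLG and 7.82 ± 3.41 FPKM in WT (SD, n = 4 each). The fitted log2 fold change of -0.01 had a 95% interval from -1.01 to 0.99 (limma adjusted p = 0.992), so changes within it were not excluded. The interval is for a single gene before adjustment, so it does not give the size of change that would pass. Lum and Col15a1, with SE of 0.41 and 0.48, did not pass at log2 fold changes of -1.03 and -1.02 (limma adjusted p = 0.184 and 0.253). Col1a2 was at 4.46, 6.08, 6.04 and 2.15 FPKM in POLG and 5.83, 6.17, 3.80 and 6.74 FPKM in WT, a log2 fold change of -0.27 (SE 0.27, limma adjusted p = 0.585). POLG H was the lowest library for both chains. The sign for Col1a1 was positive after median ratio scaling (0.08) and without POLG H (0.37).

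Type V collagen sits inside type I fibrils and sets their width. Its chains were at means of 2.80 and 3.28 FPKM in POLG and WT for Col5a1, of 1.61 and 1.6 FPKM for Col5a2 and of 2.42 and 2.09 FPKM for Col5a3. The log2 fold changes lay between -0.22 for Col5a1 and 0.16 for Col5a3, and that of Col5a3, the highest among the fibrillar genes, had an SE of 0.27. Col2a1, Col11a1, Col11a2, Col24a1 and Col27a1, some of them known from cartilage, were below the level tested. Among them Col11a2 was at 0.106, 0.0948, 0.131 and 0.00917 FPKM in POLG E, F, G and H, and at 0.0994, 0.121, 0.327 and 0.531 FPKM in WT A, B, C and D. Its high values were those of WT C and D alone. The list of 7 markers of valve interstitial cells and cartilage summed to 2.25 to 4.45 FPKM in POLG, and to 4.55, 3.22, 13.3 and 16.6 FPKM in WT A, B, C and D. Of these 7, Acan and Hapln1 were at 0 in every POLG library and in WT A and B, and no other marker of the list was at 0 in every POLG library. The part of such tissue in the Col11a2 values was not tested.

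**Figure D2:**
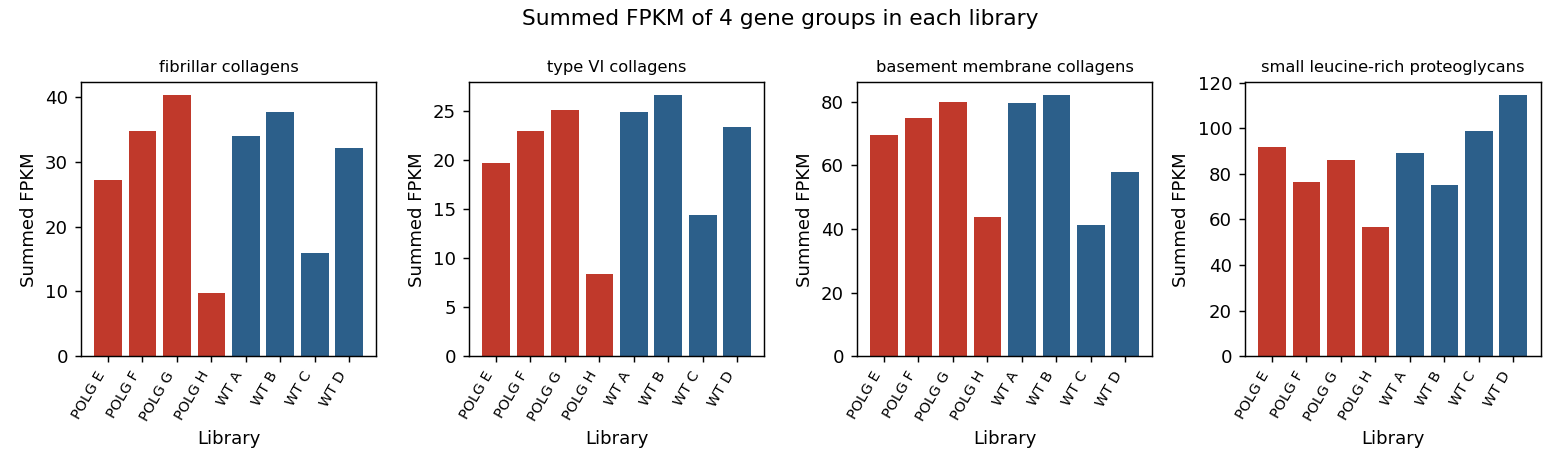
Bars give the summed FPKM (vertical axes, from 0) of fibrillar collagens, type VI collagens, basement membrane collagens and small leucine-rich proteoglycans in each library, POLG E to H in red and WT A to D in blue. POLG H is the lowest bar for the fibrillar (9.84 FPKM) and type VI collagens (8.38 FPKM) and the proteoglycans (56.5 FPKM), while WT C is the lowest for basement membrane collagens (41.3 FPKM).

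Basement membrane collagens were the most abundant class of collagen. Of 8 in the table, 5 were tested, 4 of them above 0, with a median of 0.03. Col4a2 and Col4a1 encode the chains of the common type IV network and lie head to head on chromosome 8 of mm10 (Col4a1 11198423 to 11312826, minus strand, and Col4a2 11312805 to 11449287, plus strand). Col4a2 was at 32.5, 33.1, 39.7 and 22.4 FPKM in POLG E, F, G and H, against 32.3, 35.9, 18.4 and 23.2 FPKM in WT A, B, C and D. Its log2 fold change was 0.23 (SE 0.23, limma adjusted p = 0.595). Col4a1 was at 28.1, 29.6, 28.8 and 16.8 FPKM in POLG and 31.0, 30.2, 13.8 and 21.2 FPKM in WT, a log2 fold change of 0.13 (SE 0.27, limma adjusted p = 0.818). For both, POLG H, WT C and WT D made up the low end, and the sign was negative without WT C and D (-0.12 for Col4a2 and -0.27 for Col4a1).

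Col4a5, on chromosome X, varied least of the 16 collagens tested, with a range of 1.24-fold over the 8 libraries. It was at 2.99 ± 0.269 FPKM in POLG and 2.95 ± 0.215 FPKM in WT (SD, n = 4 each), with the log2 fold change at 0.02 with a 95% interval from -0.17 to 0.20. A change of more than 0.20 on this scale therefore lay outside the interval. Col18a1, the source of endostatin, was at 1.55 and 1.46 FPKM in POLG and WT, with a log2 fold change of 0.03 (SE 0.14).

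Col15a1, a collagen proteoglycan that links basement membranes to the fibrils beside them, had the lowest log2 fold change of any collagen, though it did not pass. It was at 3.55, 6.05, 5.83 and 0.596 FPKM in POLG E, F, G and H, against 11.1, 10.6, 4.00 and 7.53 FPKM in WT A, B, C and D. WT C lay among the POLG values, and POLG H lay far under all of the others, giving a range of 18.7-fold. The log2 fold change was -1.02 (SE 0.48, limma adjusted p = 0.253), against -0.55 without POLG H and -1.30 without WT C. Col4a3, Col4a4 and Col4a6, the chains of specialised basement membranes, were at means of 0.175, 0.389 and 0.114 FPKM in POLG and 0.213, 0.531 and 0.173 FPKM in WT.

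Type VI collagen forms beaded filaments close to the cell surface. The 3 chains tested all had log2 fold changes below 0, from -0.27 for Col6a3 to -0.21 for Col6a1, with adjusted p of at least 0.545 from limma. Col6a1 was at 12.4, 13.5, 14.6 and 5.34 FPKM in POLG E, F, G and H, and at 13.9, 14.7, 8.90 and 13.9 FPKM in WT A, B, C and D. Outside POLG H and WT C, its values ran only from 12.4 to 14.7 FPKM. Col6a3 was at means of 1.45 and 1.89 FPKM in POLG and WT. Without POLG H, Col6a1 was at 0.09 on the log2 scale.

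Col6a6, an alternative chain that lies on chromosome 9 in a row with Col6a5 and Col6a4, was below the level tested, and its groups were separate. It was at 0.323, 0.341, 0.279 and 0.168 FPKM in POLG E, F, G and H, against 0.677, 0.778, 0.543 and 0.732 FPKM in WT A, B, C and D. All POLG values were thus under all WT values. So were those of 3.11% of the genes below the level tested that were above 0 in at least 1 library. The ratio of the means was 0.407. With no filter on low values its log2 fold change was -0.40 (SE 0.074, limma adjusted p = 0.0843). Col6a5 and Col6a4 were at 0.120 FPKM or less in POLG and 0.143 FPKM or less in WT.

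Fibril-associated collagens decorate the surface of fibrils. Of the 9 in the table, Col14a1 reached the level tested, at 2.29, 2.85, 3.27 and 1.17 FPKM in POLG E, F, G and H and 3.14, 2.15, 2.61 and 4.52 FPKM in WT A, B, C and D. The groups overlapped, with a log2 fold change of -0.29 (SE 0.24, limma adjusted p = 0.507). Col20a1 and Col9a3 had separate groups at trace level. Col20a1 was at 0.0128 to 0.0832 FPKM in POLG and 0.110 to 0.254 FPKM in WT, and Col9a3 at 0 to 0.0118 FPKM in POLG and 0.0227 to 0.0942 FPKM in WT. Such values rest on few fragments, and their adjusted p with no filter were 0.177 and 0.359 from limma.

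The remaining collagens, with network, anchoring or membrane-bound forms, were led by Col8a1, a short-chain collagen of vessel walls. Col8a1 was at 1.47, 1.90, 2.38 and 0.623 FPKM in POLG E, F, G and H, and at 1.74, 1.12, 1.14 and 1.13 FPKM in WT A, B, C and D. POLG held both the lowest and the highest value, and the log2 fold change was 0.14 (SE 0.21, limma adjusted p = 0.734). Of all 30 members below the level tested, 13 had a mean of at least 0.1 FPKM and 17 a lower mean. Their groups did not overlap in 1 gene that was higher in POLG (Lox) and in 3 that were lower (Col6a6, Col20a1 and Col9a3). Of the genes below that level and above 0 in at least 1 library, 1.02% were separate as higher and 3.11% as lower.

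**Figure D3:**
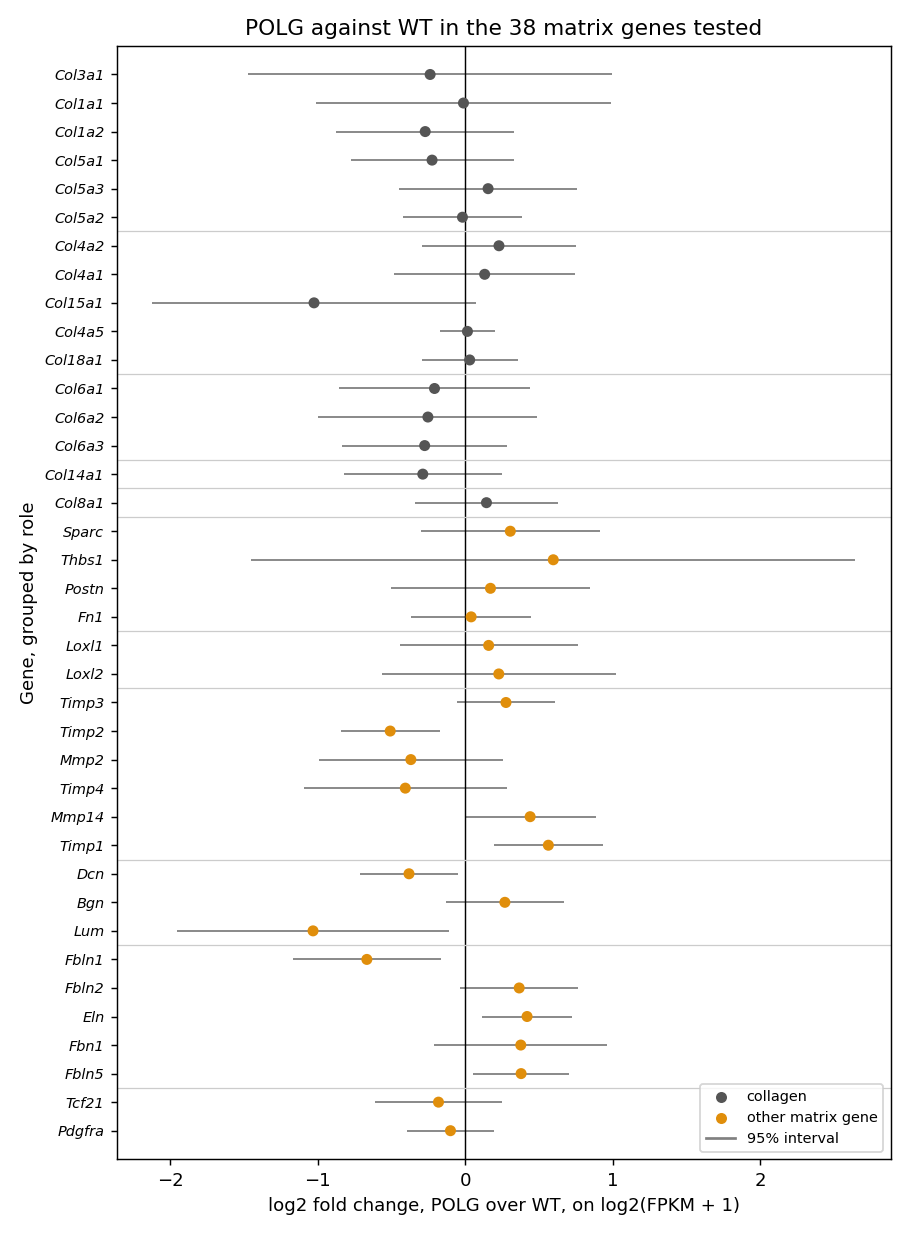
Points are log2 fold changes on log2(FPKM + 1), POLG over WT (horizontal axis), of the 38 matrix genes tested (vertical axis, grouped by role), with collagens in grey and other genes in orange, and lines are 95% intervals from limma. The intervals of all 16 collagens cross 0, that of Col4a5 is the narrowest, and those of Timp1, Eln and Fbln5 lie above 0 and those of Timp2, Fbln1, Lum and Dcn below it before adjustment.

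Matricellular and adhesive proteins tie cells to the matrix and are known to accumulate in scars. Of 5 in the table, 4 were tested and all 4 were above 0, with a median of 0.24 and none past the test. Sparc, a collagen-binding glycoprotein and the most abundant of them, was at 50.6, 60.2, 70.5 and 32.8 FPKM in POLG E, F, G and H, against 45.3, 49.4, 26.4 and 50.2 FPKM in WT A, B, C and D. POLG E, F and G were above all WT libraries and POLG H was below all but WT C. Its log2 fold change was 0.31 (SE 0.27, limma adjusted p = 0.533). Postn, the periostin of activated fibroblasts, was at 2.66, 4.07, 5.0 and 1.07 FPKM in POLG and 2.83, 2.08, 2.09 and 2.93 FPKM in WT, a log2 fold change of 0.17 (SE 0.30, limma adjusted p = 0.779). Fn1, the fibronectin to which integrins bind, was at 2.74 ± 0.845 FPKM in POLG and 2.58 ± 0.443 FPKM in WT (SD, n = 4 each), and its log2 fold change of 0.04 had a 95% interval from -0.37 to 0.45. Tnc, tenascin C, was at 0.0397 to 0.176 FPKM in POLG and 0.0382 to 0.119 FPKM in WT.

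Thbs1, an activator of latent TGF-beta, varied most of all the matrix genes, over a range of 27.7-fold. It was at 3.22, 31.4, 7.25 and 4.31 FPKM in POLG E, F, G and H, and at 7.93, 25.3, 1.13 and 1.28 FPKM in WT A, B, C and D. A high library was found in each genotype, and the low ones were WT C and D. Its change of 0.60 on the log2 scale had an SE of 0.90 (limma adjusted p = 0.740) and turned to -0.03 without POLG F and to -0.80 without WT C and D. A list of 8 immediate early genes, which cells induce within minutes of a stimulus, was chosen after their values were seen. It summed to 335, 585, 420 and 517 FPKM in POLG E, F, G and H, and to 378, 783, 49.4 and 69.7 FPKM in WT A, B, C and D. These sums were highest in the same library of each group as Thbs1 and lowest in WT C and D, and their part in the Thbs1 values was not tested.

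Lox encodes lysyl oxidase, which starts the cross-links of collagen and elastin, and lay below the level tested. It was at 0.970, 0.786, 0.558 and 1.0 FPKM in POLG E, F, G and H, against 0.235, 0.375, 0.255 and 0.186 FPKM in WT A, B, C and D. All POLG values were above all WT values, and the mean of POLG was 3.16 times that of WT. POLG H, the lowest library for most matrix genes, was the highest for Lox. With no filter on low values its log2 fold change was 0.53 (SE 0.098) and its adjusted p 0.0837 from limma. The related Loxl1, which acts on elastin, was at 8.10, 7.42, 10.4 and 5.14 FPKM in POLG and 8.14, 9.64, 3.75 and 6.46 FPKM in WT, a log2 fold change of 0.16 (SE 0.27). Loxl2, which acts on type IV collagen, was at means of 2.72 and 2.09 FPKM in POLG and WT. Neither of these differed beyond the spread between mice.

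The TIMPs did not share a direction. Timp1, an inhibitor known to be induced in injured and inflamed tissue, was at 2.05, 2.08, 2.49 and 1.1 FPKM in POLG E, F, G and H, against 0.802, 1.29, 0.773 and 0.967 FPKM in WT A, B, C and D. POLG E, F and G were above all WT libraries, and POLG H lay among them. The means were 1.93 ± 0.591 FPKM in POLG and 0.959 ± 0.239 FPKM in WT (SD, n = 4 each). The log2 fold change was 0.56 (SE 0.16, 95% interval 0.19 to 0.93, limma adjusted p = 0.0993). Timp1 passed without POLG H (0.72, limma adjusted p = 0.0424) and with library weights (0.67, limma adjusted p = 0.0325). These weights were estimated from the spread of the same values, not from a measured quality. Over all alternatives run its adjusted p lay between 0.0325 and 0.351.

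Timp1 lies on chromosome X of mm10 (20870166 to 20874735, plus strand). The 250 bases before its RefSeq start (GRCm38.p6, chrX:20869916-20870165, plus strand) are shown because Timp1 had the smallest adjusted p of the matrix genes, with matches to CCAAT and GGGCGG, both on the opposite strand, in capitals.
Timp1: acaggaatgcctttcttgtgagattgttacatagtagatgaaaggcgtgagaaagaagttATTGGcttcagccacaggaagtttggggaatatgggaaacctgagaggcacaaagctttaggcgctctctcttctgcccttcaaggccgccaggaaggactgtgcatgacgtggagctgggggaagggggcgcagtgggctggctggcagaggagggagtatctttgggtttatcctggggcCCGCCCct
The matches begin 190 and 8 bases before the start.

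Timp2, the inhibitor that also takes part in the activation of Mmp2, went the other way. It was at 19.1, 17.7, 17.4 and 12.1 FPKM in POLG E, F, G and H, against 22.1, 21.3, 23.7 and 28.3 FPKM in WT A, B, C and D. All POLG libraries were under all WT libraries, with POLG H lowest and WT D highest. The log2 fold change was -0.51 (SE 0.15, limma adjusted p = 0.101). Timp3, the inhibitor bound to the matrix, was the most abundant of the class at 37.5 ± 8.62 FPKM in POLG and 30.3 ± 2.42 FPKM in WT (SD, n = 4 each), with the log2 fold change at 0.28 (SE 0.15, limma adjusted p = 0.303).

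Timp4, the inhibitor most restricted to the heart, was at 1.98, 2.34, 2.41 and 7.04 FPKM in POLG E, F, G and H, and at 3.61, 4.78, 5.84 and 3.61 FPKM in WT A, B, C and D. POLG E, F and G were below all WT libraries, while POLG H was above all of them. Its log2 fold change was -0.41 (SE 0.30, limma adjusted p = 0.457) and -0.73 without POLG H (limma adjusted p = 0.0747). The gelatinase Mmp2 was at 9.46, 10.1, 12 and 4.49 FPKM in POLG and 12.8, 12.6, 7.66 and 13.2 FPKM in WT, a log2 fold change of -0.37 (SE 0.27, limma adjusted p = 0.457). The membrane-bound Mmp14, which activates Mmp2, was at 2.92, 1.61, 2.48 and 1.93 FPKM in POLG and 1.62, 2.18, 0.813 and 1.03 FPKM in WT, a log2 fold change of 0.44 (SE 0.20, limma adjusted p = 0.228). Of the 6 genes of this class, 3 were above and 3 below 0.

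**Figure D4:**
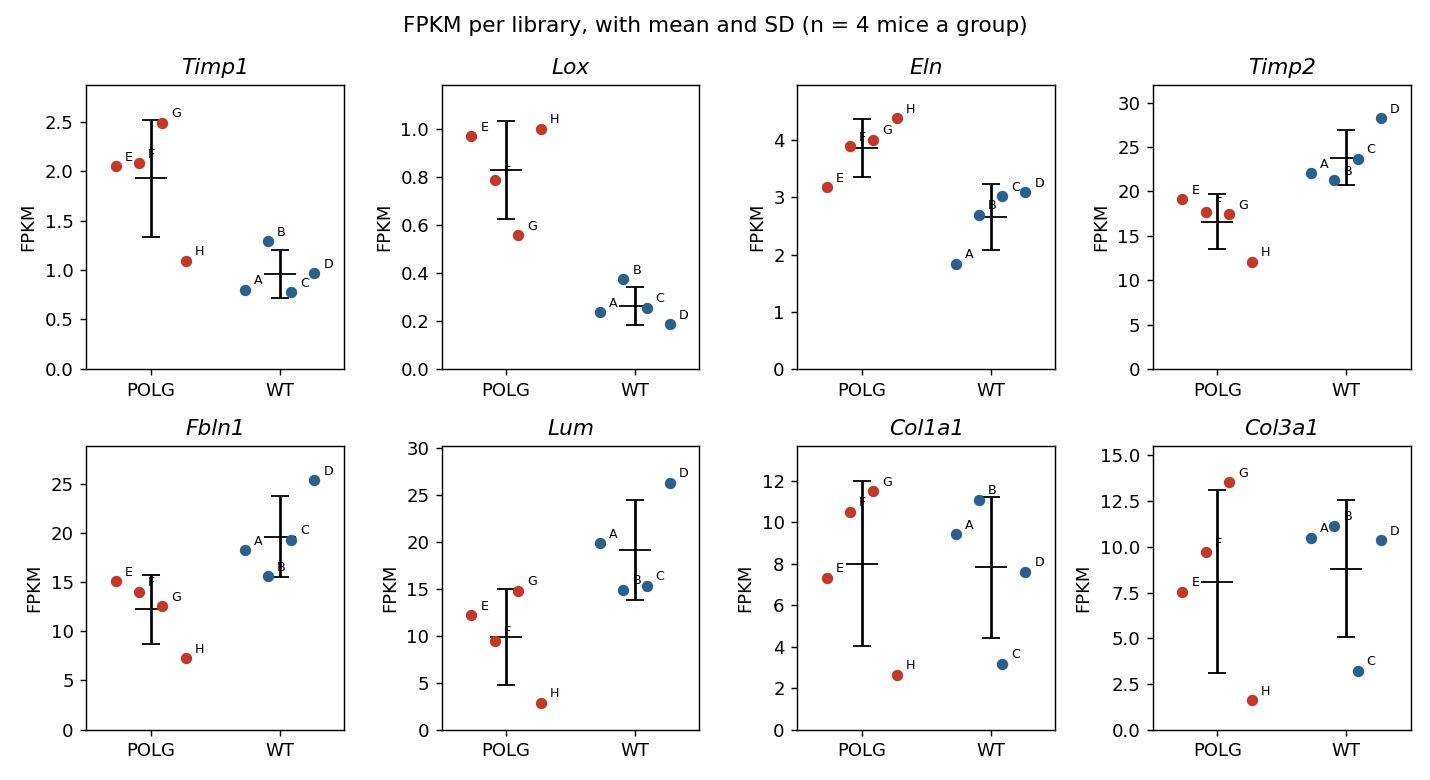
Points are FPKM (vertical axes, from 0) of Timp1, Lox, Eln, Timp2, Fbln1, Lum, Col1a1 and Col3a1 in each library, lettered E to H for POLG (red) and A to D for WT (blue), with bars for the mean and SD of 4 mice. Lox and Eln show POLG points wholly above the WT points and Timp2, Fbln1 and Lum wholly below them, whereas Col1a1 and Col3a1 overlap with POLG H (2.66 and 1.61 FPKM) and WT C (3.17 and 3.22 FPKM) far under the rest.

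Small leucine-rich proteoglycans bind collagen fibrils and regulate their spacing. Lum, lumican, had the lowest log2 fold change of all 38 genes. It was at 12.2, 9.46, 14.8 and 2.89 FPKM in POLG E, F, G and H, against 19.8, 14.9, 15.3 and 26.3 FPKM in WT A, B, C and D. The groups did not overlap, though POLG G and WT B lay side by side. The log2 fold change was -1.03 (SE 0.41, limma adjusted p = 0.184) and -0.60 without POLG H. Dcn, decorin, which lies 47.0 kb from Lum on chromosome 10, was the most abundant of the class. It was at 46.9, 39.4, 38.7 and 34.0 FPKM in POLG E, F, G and H, and at 46.9, 41.4, 61.5 and 60.1 FPKM in WT A, B, C and D. WT C and D were above the rest, and the log2 fold change was -0.38 (SE 0.15, limma adjusted p = 0.177), against -0.15 without WT C and D. Bgn, biglycan, had the opposite sign, at 28 ± 6.10 FPKM in POLG and 22.9 ± 3.82 FPKM in WT (SD, n = 4 each), with the log2 fold change at 0.27 (SE 0.18, limma adjusted p = 0.396).

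Elastic fibres give the wall its recoil, with elastin at their core, fibrillin as scaffold and fibulins as links. Of the 5 genes of this class, 4 were above 0 and 3 of the 5 had an unadjusted p under 0.05. Eln was at 3.18, 3.89, 4.01 and 4.39 FPKM in POLG E, F, G and H, against 1.84, 2.70, 3.02 and 3.09 FPKM in WT A, B, C and D. It was the only gene of the 38 with all POLG values above all WT values, although POLG E and WT D lay close together. Its log2 fold change was 0.42 (SE 0.13, limma adjusted p = 0.124). Fbln5, which guides elastin onto microfibrils, was at 3.25, 2.79, 3.30 and 2.55 FPKM in POLG and 1.54, 1.70, 2.21 and 2.90 FPKM in WT, with WT D inside the POLG range. Its log2 fold change was 0.38 (SE 0.14, limma adjusted p = 0.170). Fbln2 and the fibrillin Fbn1 had log2 fold changes of 0.37 and 0.38, with adjusted p of 0.263 and 0.418 from limma.

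Fbln1, a fibulin of basement membranes and elastic fibres, was the exception in its class. It was at 15.1, 14.0, 12.5 and 7.24 FPKM in POLG E, F, G and H, against 18.2, 15.6, 19.3 and 25.3 FPKM in WT A, B, C and D. All POLG libraries were under all WT libraries, with POLG E and WT B the nearest pair. The log2 fold change was -0.67 (SE 0.22, limma adjusted p = 0.136). Fbln1 lies on chromosome 15 of mm10 (85205949 to 85286535, plus strand). RefSeq gives Fbln1 more than 1 start. The 250 bases before the first of them (GRCm38.p6, chr15:85205699-85205948, plus strand) are shown beside those of Timp1 and Col3a1 because Fbln1 had the largest difference in this class, and none of the letters searched is in this window, so it has no capitals. The window of another start of Fbln1, not shown, holds a match to GGGCGG on the opposite strand, and the gene is counted with those that hold it.
Fbln1: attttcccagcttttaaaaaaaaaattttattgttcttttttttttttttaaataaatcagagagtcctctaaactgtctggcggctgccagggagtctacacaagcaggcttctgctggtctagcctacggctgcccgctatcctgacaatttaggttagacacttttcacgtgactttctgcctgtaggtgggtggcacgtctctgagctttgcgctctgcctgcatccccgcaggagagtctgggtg

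Pdgfra, the receptor that marks resident fibroblasts, was at 2.97, 2.52, 2.52 and 1.90 FPKM in POLG E, F, G and H, and at 3.19, 2.22, 2.38 and 3.14 FPKM in WT A, B, C and D. The groups overlapped, and the log2 fold change was -0.10 (SE 0.13, 95% interval -0.39 to 0.19, limma adjusted p = 0.690). Tcf21, a transcription factor of the same cells, was at 2.35, 2.96, 3.32 and 1.78 FPKM in POLG and 2.90, 2.98, 2.13 and 4.44 FPKM in WT, a log2 fold change of -0.18 (SE 0.19, limma adjusted p = 0.610). The wider list of 10 fibroblast markers, of which Pdgfra, Tcf21 and Fbln1 are counted here already, had 9 tested. All 9 were below 0 with a median of -0.55, where 31.7% of all genes tested were above 0. None passed, and 5 had POLG libraries wholly under WT libraries, as did 12.9% of all genes tested. The list summed to 190.2 to 342 FPKM in POLG and 404 to 519 FPKM in WT, with no marker at 0 in every library of a group. POLG H was the lowest library for all 9, as it was for 40.2% of all genes tested. Without POLG H, 8 of the 9 were below 0 (median -0.43), where 4069 of all 10236 genes tested were above 0. With median ratio scaling all 9 were below 0 (median -0.44), where 5175 of all 10236 were above 0. Gsn, which caps actin filaments, made up most of that sum at 255, 270.4, 231 and 152 FPKM in POLG and 334, 322, 348 and 403 FPKM in WT. The part of fibroblast number in the values of Lum, Dcn and Fbln1 was not tested.

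Ratios within a library were compared for 4 pairs of genes, because a ratio is not moved by a shift common to both genes. The smallest p that 4 mice against 4 allow is 0.0286. The ratio of Col1a1 to Col1a2, the chains of type I collagen, was 1.63 ± 0.284 in POLG and 1.34 ± 0.441 in WT (SD, n = 4 each; exact two-sided permutation test, p = 0.286). The ratio of Col3a1 to Col1a1 was 0.934 ± 0.242 in POLG and 1.12 ± 0.164 in WT (SD, n = 4 each; exact permutation test, p = 0.286). POLG H had the lowest value of that ratio at 0.605. The ratio of Col4a1 to Col4a2 was 0.809 ± 0.0824 in POLG and 0.866 ± 0.0915 in WT (SD, n = 4 each; exact permutation test, p = 0.40), and it varied 1.32-fold over the 8 libraries, where the genes themselves varied 2.24-fold and 2.16-fold. The ratio of Mmp2 to Timp2 was 0.532 ± 0.134 in POLG and 0.491 ± 0.126 in WT (SD, n = 4 each; exact permutation test, p = 0.714). Adjusted over the 4 ratios, p lay between 0.533 and 0.714 in these exact permutation tests.

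**Figure D5:**
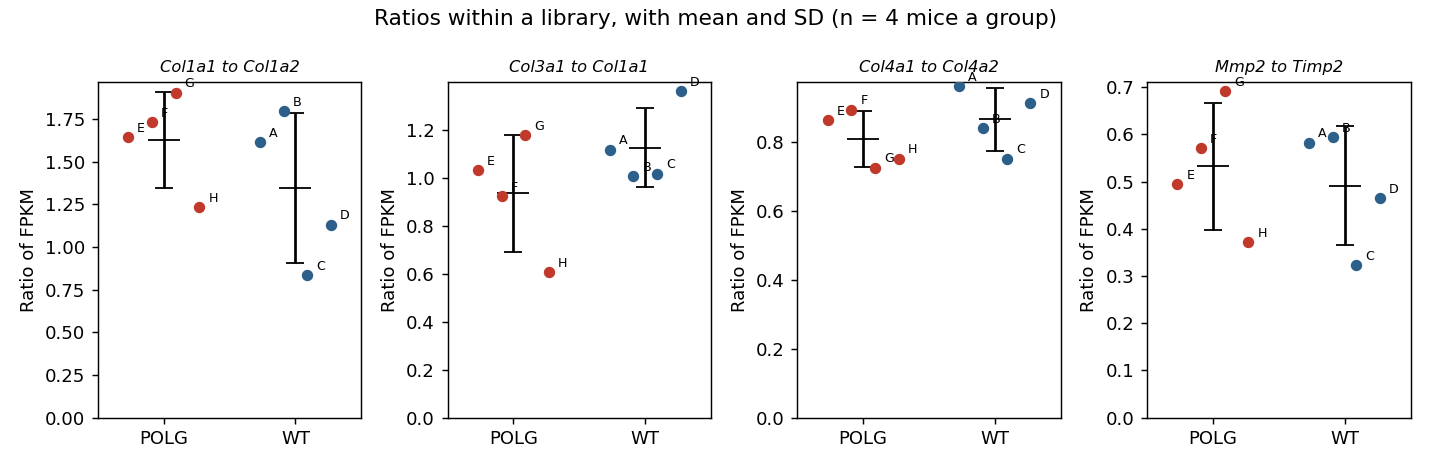
Points are ratios of FPKM within a library (vertical axes, from 0) for Col1a1 to Col1a2, Col3a1 to Col1a1, Col4a1 to Col4a2 and Mmp2 to Timp2, lettered by library with POLG left of WT, and bars give the mean and SD of 4 mice. The groups overlap in all 4 panels, and the ratio of Col4a1 to Col4a2 keeps to between 0.726 and 0.961.

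The machinery that modifies and secretes collagen was listed as 24 genes, of which 20 were tested. None passed, 4 were above 0 and 16 below, with a median of -0.20, where 31.7% of all genes tested were above 0. POLG H was the lowest library in 16 of the 20, against 40.2% of all genes tested. Bmp1, a protease that removes the C-terminal propeptide of fibrillar collagens, was at 1.36, 1.6, 1.65 and 1.28 FPKM in POLG E, F, G and H, against 2.48, 1.92, 3.17 and 3.91 FPKM in WT A, B, C and D. The groups did not overlap, and the log2 fold change was -0.62 (SE 0.15, limma adjusted p = 0.0692). In this list 2 of the 20 were separate as lower and 1 as higher, against 12.9% and 2.96% of all genes tested. Fkbp10, a chaperone of collagen, was higher in all POLG libraries, at 10.96, 10.2, 9.95 and 13.9 FPKM against 5.69, 7.44, 9.63 and 8.32 FPKM in WT, with a log2 fold change of 0.49 (SE 0.16, limma adjusted p = 0.123). Serpinh1, the collagen chaperone Hsp47, was at 33.0 ± 11.9 FPKM in POLG and 43.7 ± 15.5 FPKM in WT (SD, n = 4 each).

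Of 21 TGF-beta signalling genes tested, 1 was higher (0.694% of all genes tested) and 0 were lower (2.12%) at a limma adjusted p under 0.05. Above 0 were 10 of the 21, against 31.7% of all genes tested. The gene that rose was Smad6, an inhibitor of BMP and TGF-beta signals, at 9.31, 9.85, 8.69 and 10.8 FPKM in POLG E, F, G and H, against 5.23, 2.88, 4.62 and 6.16 FPKM in WT A, B, C and D. Its log2 fold change was 0.93 (SE 0.17, limma adjusted p = 0.0370). Eng, the endothelial co-receptor, was at 38.9 ± 1.41 FPKM in POLG and 28.5 ± 4.58 FPKM in WT (SD, n = 4 each), with an adjusted p of 0.0720 from limma. With median ratio scaling, Eng passed as higher beside Smad6, and 16 of the 21 genes were above 0, as were 5175 of all 10236 genes tested.

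Laminins and their partners, the noncollagenous part of the basement membrane, had 13 genes tested, with 0 higher and 1 lower (2.12% of all genes tested). Lamb2, a laminin chain of muscle basement membranes, fell to 23.6, 29.9, 24.0 and 23.7 FPKM in POLG E, F, G and H, against 41.9, 40.9, 49.3 and 55.9 FPKM in WT A, B, C and D. Its log2 fold change was -0.86 (SE 0.12, limma adjusted p = 0.0155), and it also passed without POLG H and without WT C, but not without both WT C and D. Of 18 matrix receptors tested, Itga7, the laminin-binding integrin of muscle, was lower at 12.4 ± 0.849 FPKM in POLG and 17.3 ± 1.65 FPKM in WT (SD, n = 4 each), with the log2 fold change at -0.45 (SE 0.087, limma adjusted p = 0.0388). No other receptor passed, and 2.12% of all genes tested were lower.

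Among 23 other matrix proteoglycans and glycoproteins tested, 0 were higher and 1 was lower (2.12% of all genes tested), with 6 above 0 (31.7% of all genes tested). Efemp1, a relative of the fibulins, fell to 1.72, 0.940, 1.22 and 1.02 FPKM in POLG E, F, G and H, against 2.15, 2.93, 4.68 and 3.92 FPKM in WT A, B, C and D (log2 fold change -0.97, standard error 0.19, limma adjusted p = 0.0388). WT C and D held its highest values. Among 13 other matrix proteases and inhibitors tested, Mmp3, stromelysin, rose to 4.40, 2.39, 1.64 and 3.40 FPKM in POLG, against 0.681, 1.0, 0.923 and 1.02 FPKM in WT. Its log2 fold change was 1.01 (SE 0.20, limma adjusted p = 0.0410), and no other gene of that list passed. Over all genes tested, 0.694% were higher. Smad6, Itga7, Efemp1 and Mmp3 no longer passed without POLG H, without WT C, or without WT C and D, nor did Itga7 and Efemp1 with median ratio scaling.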

How the data were processed

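Right ventricle RNA of 4 POLG and 4 WT mice was sequenced, with 1 library per mouse, grouped by the labels. The authors made stranded poly(A) libraries, aligned the read pairs to mm10 using HISAT2 and derived FPKM using StringTie. Further tools in the submitters' processing notes are cutadapt, FastQC and edgeR, with versions not given in the sources used here. In the deposited table are FPKM per gene and library, with 0.0001 in place of 0 (read here as 0), beside the authors' ratio of mean FPKM and its log2, columns of the authors' own comparison that were not used. It held 0 columns of other samples.

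Because the values are FPKM, count models were left out. The fit took every gene averaging 1 FPKM or more, on log2(FPKM + 1), and used limma 3.58.1 (R 4.3.3), the prior variance following a trend, and Benjamini-Hochberg adjustment over 10236 genes. Ratios were compared by exact permutation of the 70 assignments of libraries in Python 3.11.15. In simulated data for this comparison, where 200 of the 10236 genes were given a change, the fit recovered 38.0%, 88.5% and 98.0% of those changed by a log2 of 0.5, 1 and 2. The changed genes were drawn from all genes tested, with noise independent between genes and no library low across many genes. These shares are therefore not those of the matrix genes, where the SE reached 0.44 for Col1a1 and 0.54 for Col3a1. Gene positions came from GENCODE M21, where 66 of the 68 genes matched by versioned identifier, and promoters from RefSeq (GRCm38.p6). Relative depth is rough: in each library only 55.3% to 58.7% of low values came within 2% of whole fragments, so reads were not reconstructed.

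The genes, gene lists and tests were chosen with earlier results of these data known. Named by rule were genes that passed, genes with separate groups, the most abundant gene of each role, the highest and lowest log2 fold change of each role with 3 or more genes tested, and Pdgfra, Tcf21, Fn1, Postn, Lox and Timp1. Other matrix genes are given to account for each class. From the wider lists, Bmp1, Fkbp10, Serpinh1, Eng, Gsn, C1qa and Acta2 did not pass in the main fit and were named by no rule. Bmp1, C1qa and Acta2 had the smallest adjusted p of their lists. Alternatives were pseudocounts of 0.1 and 5, no filter, a minimum of 5 FPKM, median ratio scaling, scaling to nuclear-encoded genes, no trend, quantile normalization, a robust prior, library weights, permutation per gene, and leaving out each library.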

Additional observations from a re-analysis of the deposited data

Results flagged for a closer look

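For the genes named by rule or used in a ratio, and for the 4 ratios, the highest and the lowest library of each group of 4 were set against the others by Dixon's ratio of the gap to the range. In 6 of the 64 groups examined it was above its 95% critical value, which chance exceeds in about 1 in 20. In POLG, library H was apart for Col4a1 at 16.8 FPKM, with the other 3 POLG libraries at 28.1 to 29.6 FPKM, and library F was apart for Thbs1 at 31.4 FPKM, with the others at 3.22 to 7.25 FPKM. In WT, library C was the low value for 3 genes: Col3a1 at 3.22 FPKM, Col6a1 at 8.90 FPKM and the gelatinase Mmp2 at 7.66 FPKM. The other WT libraries were at 10.4 to 11.2 FPKM for Col3a1, at 13.9 to 14.7 FPKM for Col6a1 and at 12.6 to 13.2 FPKM for Mmp2. Library A was the high WT value for Col8a1 at 1.74 FPKM, with the others at 1.12 to 1.14 FPKM.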

How the results depend on the processing

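The count of matrix genes that passed stayed at 0 in each direction under all alternatives run but 2, the library weights and the set without POLG H, each of which gave 1 higher (Timp1, from limma). Leaving out each library in turn gave 0 to 1 higher. Over all genes, where 71 were higher and 217 lower, the counts were 19 higher and 58 lower with no filter, 127 and 123 with median ratio scaling, 128 and 140 with quantile normalization, 120 and 354 with library weights, and 0 and 0 with the exact permutation test per gene. When 1 library was left out, the counts were 10 to 60 higher and 30 to 117 lower. The permutation test has a smallest p of 0.0286, so after adjustment it could hardly pass any single gene. When neither WT C nor D entered the fit, which was tried only once the data had been seen, 11 were higher and 13 lower. Of 530 comparisons of 27 named matrix genes with an alternative, 505 kept direction and side of the threshold, 23 reversed and 2 (Timp1) newly passed, and 17 genes reversed under none. Col1a1 was at 0.0038 on the log2 scale with a pseudocount of 5, 0.084 with median ratio scaling, 0.0908 with quantile normalization and 0.10 with library weights. Without WT C and D, Col4a1 was at -0.27, Col4a2 at -0.12, Col5a3 at -0.21, Fn1 at -0.0173, Loxl1 at -0.20 and Thbs1 at -0.80. When 1 library was left out, the log2 fold changes ran from -0.34 to 0.37 for Col1a1, -0.60 to 0.28 for Col3a1, -0.10 to 0.32 for Col4a1, -0.36 to 0.0904 for Col6a1, -0.0505 to 0.21 for Fn1, -0.0705 to 0.32 for Loxl1, -0.0361 to 0.48 for Postn and -0.0300 to 1.32 for Thbs1. The difference of the log2 ratio of Mmp2 to Timp2, 0.12 in all, ran from -0.0670 (without WT C) to 0.28. The cause was not tested. No paired analysis was possible because the groups share no replicate letters. Estimated depth was lowest in POLG H, WT C and WT D, which limits the precision of their low values.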

Other observations

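Markers of the cells around the matrix were read from the same fit. In it 31.7% of all genes tested were above 0, 0.694% passed as higher and 2.12% as lower. None of 9 macrophage markers tested passed, but all 9 were above 0 with a median of 0.24 on the log2 scale, and the 10 in the table summed to 125 to 191 FPKM in POLG and 120.0 to 149 FPKM in WT. C1qa, a complement subunit made by resident macrophages, was at 36.9 ± 2.90 FPKM in POLG and 30.0 ± 3.19 FPKM in WT (SD, n = 4 each), with an adjusted p of 0.131 from limma. Of 10 endothelial markers, 7 were above 0 (median 0.13) and none passed, but without WT C and D only 4 were above 0 (median -0.06). Of 7 mural cell markers, 4 were above 0, and 0 were without WT C and D. Myh11, the smooth muscle myosin, fell to 3.63, 3.83, 3.69 and 3.30 FPKM in POLG E, F, G and H, against 4.82, 5.12, 5.81 and 6.38 FPKM in WT A, B, C and D (log2 fold change -0.50, standard error 0.093, adjusted p = 0.0370 from limma). The smooth muscle actin Acta2, which myofibroblasts share, was at 42.1, 27.7, 40.6 and 14.8 FPKM in POLG and 56.8, 66.4, 68.3 and 75.9 FPKM in WT. All POLG libraries were below all WT libraries, as in 12.9% of all genes tested. The log2 fold change of Acta2, -1.17, had an adjusted p of 0.0696 from limma, the smallest of its list. Of 6 markers of activated fibroblasts and myofibroblasts tested, 3 were above 0 and 3 below. In cardiomyocytes, 8 of 10 markers were below 0 and 2 passed, Tnni3 (log2 fold change -0.57, standard error 0.070, adjusted p = 0.00892 from limma) and Myh6 (-0.61, standard error 0.115, adjusted p = 0.0370 from limma). Without POLG H, or without WT C, Tnni3 passed and Myh11 and Myh6 did not, and none of these passed without WT C and D. With median ratio scaling C1qa passed as higher, and Myh6 no longer passed.

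Markers of epicardium and fat were highest in WT C and D. The 8 markers of epicardium and mesothelium summed to 4.43 to 8.67 FPKM in POLG and to 4.53, 5.62, 18.5 and 16.1 FPKM in WT A, B, C and D. The 6 adipocyte markers summed to 0.0490 to 1.07 FPKM in POLG and to 0.447, 0.0578, 3.65 and 5.95 FPKM in WT, with Lep and Retn at 0 in every POLG library. The 5 Schwann cell markers summed to 2.73 to 2.998 FPKM in POLG and 3.07 to 3.89 FPKM in WT. The proteoglycan Fmod, known from tendon and cartilage, was at 0.174, 0.0935, 0.127 and 0.141 FPKM in POLG E, F, G and H, against 0.468, 0.646, 4.20 and 3.22 FPKM in WT A, B, C and D, and was chosen after its values were seen. Its groups did not overlap, with POLG lower, as in 12.9% of all genes tested (log2 fold change -1.25, standard error 0.39, adjusted p = 0.118 from limma). The part of such tissue in its level was not tested.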
